A study of Gossypium hirsutum with 6 samples.

Results

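Sucrose synthase cleaves sucrose with UDP to give UDP-glucose and fructose, a reaction that can run in either direction. UDP-glucose is the substrate from which cellulose and callose are made, and the enzyme is known for feeding growing sinks and, in cotton, the developing fibre. Several genes encode it, and in cotton they include susC, Sus1 and SusA1.

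The genes were taken as every probe set paired with exactly 1 gene whose RefSeq names include susC, Sus1 or SusA1. That gave 4 probe sets of 3 genes, of 520 genes paired in this way on the array. Beside them stand 6 control probe sets that Affymetrix placed at the 3' end, the middle and the 5' end of a sucrose synthase transcript, 3 designed on upland cotton (Gossypium hirsutum) and 3 on the related wild species Gossypium raimondii. susC is LOC107901030 and SusA1 is LOC107910106. The name Sus1 belongs to LOC107958826 and LOC107907080, and the first of these is the one with a probe set here. No control probe set is paired with a gene, so which sucrose synthase gene they read is not given.

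The samples were leaves of field-grown upland cotton, cultivar Bikaneri Nerma, with 3 arrays from irrigated control plants and 3 from droughted plants. In the drought plots irrigation stopped at peak flowering, and a movable shelter kept rain off. Leaves were taken 18 to 19 days later, when soil moisture was 19.5%, which was 50% of that in the control plots. Each group had 6 plots, and the labels call its arrays biological replicates but name no plot or plant for any of them. The p-values below therefore rest on the spread of these arrays, whatever its source.

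Each array reports 24132 probe sets, of which 24046 were tested. The values are log2 values that were centred so that the median of each probe set over the 6 arrays is 0. They show differences between arrays and no abundance, so the genes cannot be ordered by level, and whether a leaf marker is present or absent cannot be read. Where the groups do not overlap, the centring also makes the lowest array of the high group and the highest array of the low group mirror images of each other. Over all tested probe sets the median drought difference was 0.12, and 55.7% passed an adjusted p of 0.05 in limma, 35.3% higher and 20.4% lower in drought. Drought and control arrays did not overlap for 62.8%, with drought wholly above for 40.1% and wholly below for 22.7%. The array median of hybridisation spike-ins, which are added in fixed amounts, was 0.247 higher in drought. When these medians were set equal (spike-in centring) 35.5% of the calls were higher, against 63.4% as deposited, 53.1% with arrays centred on the tested probe sets and 50.9% after quantile normalization. Centring on the tested probe sets makes the array medians equal. Quantile normalization, run here on the centred values, gives all arrays the same distribution. Both steps pull the split towards even, so an even split after them is no finding. The spike-in medians of the drought arrays were 0.195, 0.245 and 0.0116 in replicate order. Spike-in centring passes this spread to every probe set of an array, while limma treats it as independent between probe sets. Its p-values under spike-in centring can therefore be far too small, and a pass there adds little. The number of arrays, n = 3 per group, limits the precision of every value below.

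In droughted leaves the probe set of susC fell 28.7-fold and that of Sus1 3.82-fold, while the sense probe set of SusA1 rose 1.71-fold. Without absolute levels, whether a low group lay at the lowest signal an array can give is not known. That would limit the fold size, also where fold sizes of genes are compared. Of the 4 gene probe sets, 2 were lower, 1 was higher and 1, an antisense design for SusA1, did not pass; 2 lay wholly below and 2 wholly above in drought. Of the 6 control probe sets, the 3' and middle ones of the upland cotton design fell and the other 4 did not pass. The median difference over all 10 probe sets was -0.14. In bulk leaf RNA, fewer cells of a type that holds a transcript and less of that transcript per cell cannot be told apart.

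susC had centred log2 values of 2.42, 2.50 and 2.37 on the control arrays and of -2.43, -2.44 and -2.37 on the drought arrays, given here and below in the order of their replicate numbers. All control arrays were high and all drought arrays low, with no overlap and a pooled SD within groups of 0.0494, smaller than that of most probe sets (8.72% of those tested had a smaller one). The difference was -4.84 (SE 0.07, 95% confidence interval -5.00 to -4.69, limma adjusted p = 6.8e-10). Only 131 of the 24046 tested probe sets, this one included, were at or below that difference. After quantile normalization the difference was -3.88, a 14.7-fold decrease (limma adjusted p = 3.17e-08). That step was run on the centred values and forces the same distribution on all arrays, which alters the size of large differences. The wall gene CTL1 went from -4.34 as deposited to -3.44, and XTH3 from 2.45 to 3.32. Sizes after this step are therefore not taken as better estimates.

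The identity of this signal has a limit that touches every statement on susC. Its probe set lies in 1 sequence cluster of the array with 2 others, one of which is paired with EXPA1 (LOC107914543), an expansin that loosens cell walls, and the other with no gene. The EXPA1 probe set had values of 2.32, 2.57 and 2.27 in control and -2.36, -2.27 and -2.57 in drought, a difference of -4.78 (SE 0.11, limma adjusted p = 4.63e-09). Within arrays, susC minus EXPA1 changed by -0.06 (95% confidence interval -0.40 to 0.28, exact permutation p = 0.6, two-sided), and its control and drought values overlapped. The unnamed probe set of the cluster moved less, from 0.54, 0.47 and 0.29 in control to -0.61, -0.43 and -0.29 in drought, a difference of -0.88 (SE 0.10, limma adjusted p = 0.000116). CMDR1 (-4.73) and H6L (-4.75), of other clusters, fell by nearly as much, so likeness of values alone does not show a shared signal. As its probe set shares a cluster with that of EXPA1, the value of susC is still not shown to belong to that gene alone.

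**Figure D1:**
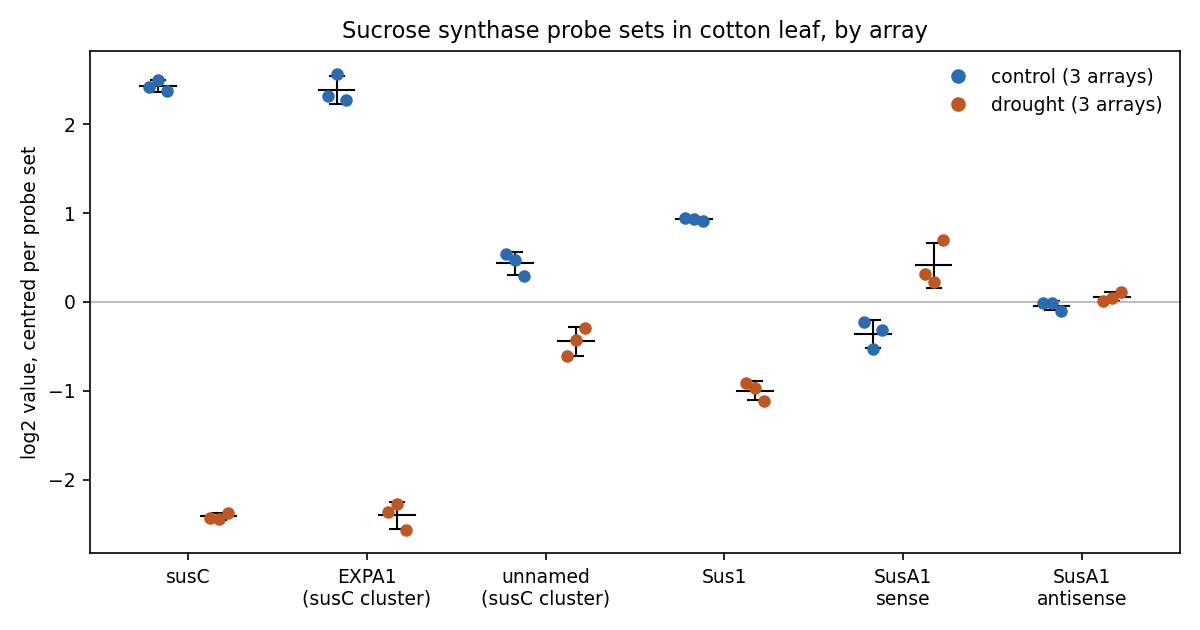
Centred log2 value (vertical axis) of the sucrose synthase gene probe sets and the other 2 probe sets of the susC cluster, with 1 point per array, control in blue and drought in orange; the horizontal bar is the group mean and the whisker its SD. Control and drought arrays of susC sit near 2.43 and -2.41, those of Sus1 between 0.91 and 0.95 and between -1.12 and -0.91, and SusA1 sense runs the other way, from -0.36 to 0.41.

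Sus1 is read by a probe set of another cluster, whose suffix marks probes shared by several transcripts, so near-identical gene copies may contribute. Its control arrays read 0.95, 0.93 and 0.91 and its drought arrays -0.91, -0.97 and -1.12. The control arrays differed among themselves by a few hundredths of a log2 unit and none reached the drought range, in which replicate 3 was lowest. The difference was -1.93 (SE 0.08, 95% confidence interval -2.11 to -1.76, limma adjusted p = 1.05e-07), and 4.64% of tested probe sets were at or below it.

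SusA1 was the member that went up. On its sense-design probe set the control arrays read -0.22, -0.53 and -0.32 and the drought arrays 0.32, 0.22 and 0.70. The groups did not overlap, but the spread was wider than for the other genes (pooled SD 0.213), with drought replicate 3 the highest array. The difference was 0.77 (SE 0.14, 95% confidence interval 0.46 to 1.09, limma adjusted p = 0.00136), and 10.3% of tested probe sets were at or above it. Under spike-in centring the difference was 0.53, and with arrays centred on the tested probe sets it was 0.68 (limma adjusted p = 0.00421).

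The other SusA1 probe set has an antisense design and was built from the same sequence entry. Its control arrays read -0.01, -0.01 and -0.10 and its drought arrays 0.01, 0.05 and 0.11, which is a difference of 0.10 (95% confidence interval -0.06 to 0.26, limma adjusted p = 0.264). This lies near the median of all probe sets, and it turned to -0.15 under spike-in centring and to -0.00282 after quantile normalization. The sense difference was larger than the antisense one by 0.68 (95% confidence interval 0.23 to 1.13). Per array, sense minus antisense was -0.21, -0.52 and -0.23 in control and 0.31, 0.17 and 0.60 in drought, with no overlap (exact permutation p = 0.1, two-sided, the smallest that 3 against 3 arrays allow). The increase of SusA1 rests on 1 of its 2 probe sets. As the 2 are designed for opposite strands, the antisense value is not a repeat of the sense measurement.

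**Figure D2:**
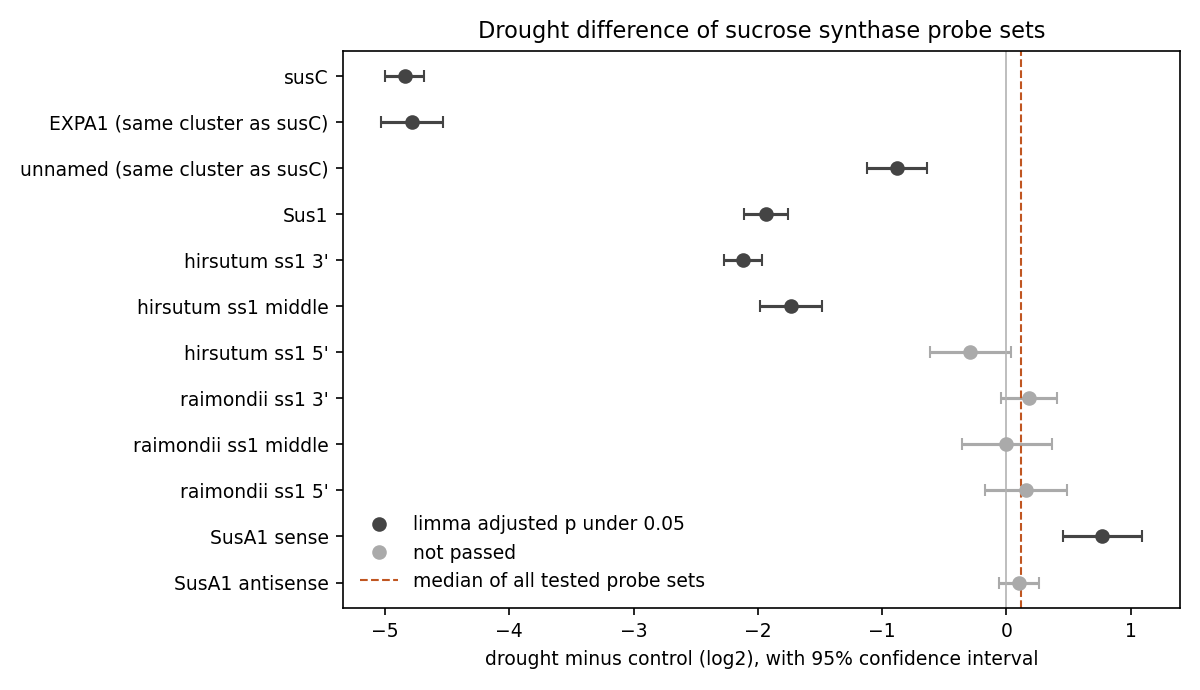
Drought minus control in log2 units (horizontal axis) for each sucrose synthase probe set and the other 2 of the susC cluster; points are the limma estimates, bars the 95% confidence intervals, dark points passed and grey points did not. The dashed line marks the median of all tested probe sets, 0.12; susC at -4.84 and Sus1 at -1.93 lie to the left of it and SusA1 sense at 0.77 to the right.

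The genes were then compared with each other within each array, where an offset added to all values of an array cancels. The value of susC minus Sus1 was 1.47, 1.57 and 1.46 in control and -1.52, -1.47 and -1.25 in drought, a change of -2.91 (95% confidence interval -3.15 to -2.67). susC minus SusA1 changed by -5.62 (95% confidence interval -6.11 to -5.13) and Sus1 minus SusA1 by -2.71 (95% confidence interval -3.32 to -2.09). After quantile normalization, with the limit on sizes given for susC, the 3 changes were smaller, at -2.28, -4.69 and -2.41 in the same order. In each of the 3 pairs the 2 groups of arrays did not overlap. Each gave an exact permutation p of 0.1 (two-sided), also after Benjamini-Hochberg adjustment over the 3 pairs, and this design can give none smaller.

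The control probe sets are labelled as the 3' end, the middle and the 5' end of a sucrose synthase transcript. None is paired with a gene, so whether those of 1 design read the same transcript is not shown. On the upland cotton design the 3' probe set read 1.05, 1.05 and 1.03 in control and -1.12, -1.09 and -1.03 in drought, a 4.34-fold decrease (difference -2.12, SE 0.07, limma adjusted p = 2.58e-08). The middle probe set read 0.78, 0.75 and 1.05 in control and -0.75, -1.04 and -0.83 in drought, a 3.32-fold decrease (difference -1.73, SE 0.11, limma adjusted p = 2.06e-06). Both separate the groups without overlap.

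The 5' probe set of the same design did not. Its control arrays read -0.03, 0.28 and 0.09 and its drought arrays -0.07, -0.48 and 0.03, which overlap (difference -0.29, 95% confidence interval -0.61 to 0.04, limma adjusted p = 0.118). The pooled SD was 0.221, and 91.4% of tested probe sets had a smaller one. Under 3 other scalings this probe set passed as lower. With arrays centred on the tested probe sets it passed narrowly, at -0.38 (limma adjusted p = 0.0496). So it did after quantile normalization, at -0.37 (limma adjusted p = 0.0461). Spike-in centring gave -0.53, with the limit on its p-values given above. The 3' minus 5' value was 1.08, 0.76 and 0.94 in control and -1.05, -0.61 and -1.06 in drought, a change of -1.83 (95% confidence interval -2.32 to -1.35, exact permutation p = 0.1, two-sided, and 0.2 adjusted over 6 such differences). Leaving out each array in turn gave -1.98 to -1.76. Quantile normalization, with the limit on sizes given for susC, gave a smaller change of -1.36. On the Gossypium raimondii design the same value was 0.03, -0.22 and 0.22 in control and -0.46, 0.38 and 0.21 in drought, which overlap, a change of 0.03 (95% confidence interval -0.76 to 0.82, exact permutation p = 1.0, two-sided).

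Other quality control transcripts gave smaller changes of the 3' minus 5' value, in both directions. For upland cotton actin it was -0.57 (95% confidence interval -0.76 to -0.39) and for ubiquitin -0.24 (95% confidence interval -0.39 to -0.10). For the Gossypium raimondii designs of actin and ubiquitin the changes were 0.64 (95% confidence interval 0.01 to 1.27) and 0.06 (95% confidence interval -0.49 to 0.60), and for ubiquitin the control and drought arrays overlapped. The part of this balance, which is used as a sign of RNA quality, in the sucrose synthase result was not tested.

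None of the 3 probe sets of the Gossypium raimondii design passed, and in each the control and drought arrays overlapped. The pooled SDs of the 3', middle and 5' ones were 0.134, 0.258 and 0.227. Of the tested probe sets, 62.8%, 96% and 92.3% had a smaller SD, so the last 2 were among the more variable. The 3' one read -0.03, -0.04 and 0.03 in control and -0.04, 0.28 and 0.28 in drought, a difference of 0.18 (95% confidence interval -0.04 to 0.41, limma adjusted p = 0.15). The middle and 5' ones gave 0.00168 (95% confidence interval -0.36 to 0.37) and 0.16 (95% confidence interval -0.17 to 0.49). Without drought replicate 1, the lowest of the drought arrays on the 3' probe set, that difference was 0.29 and passed (limma adjusted p = 0.00781).

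The 2 species designs were compared within arrays at each position. Upland cotton minus Gossypium raimondii changed by -2.30 (95% confidence interval -2.56 to -2.05) at the 3' end, by -1.73 (95% confidence interval -2.42 to -1.04) in the middle and by -0.44 (95% confidence interval -0.86 to -0.02) at the 5' end. The groups of arrays did not overlap in these 3 differences, each with an exact permutation p of 0.1 (two-sided). Without absolute levels, a probe set that did not change cannot be told from one with no signal.

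**Figure D3:**
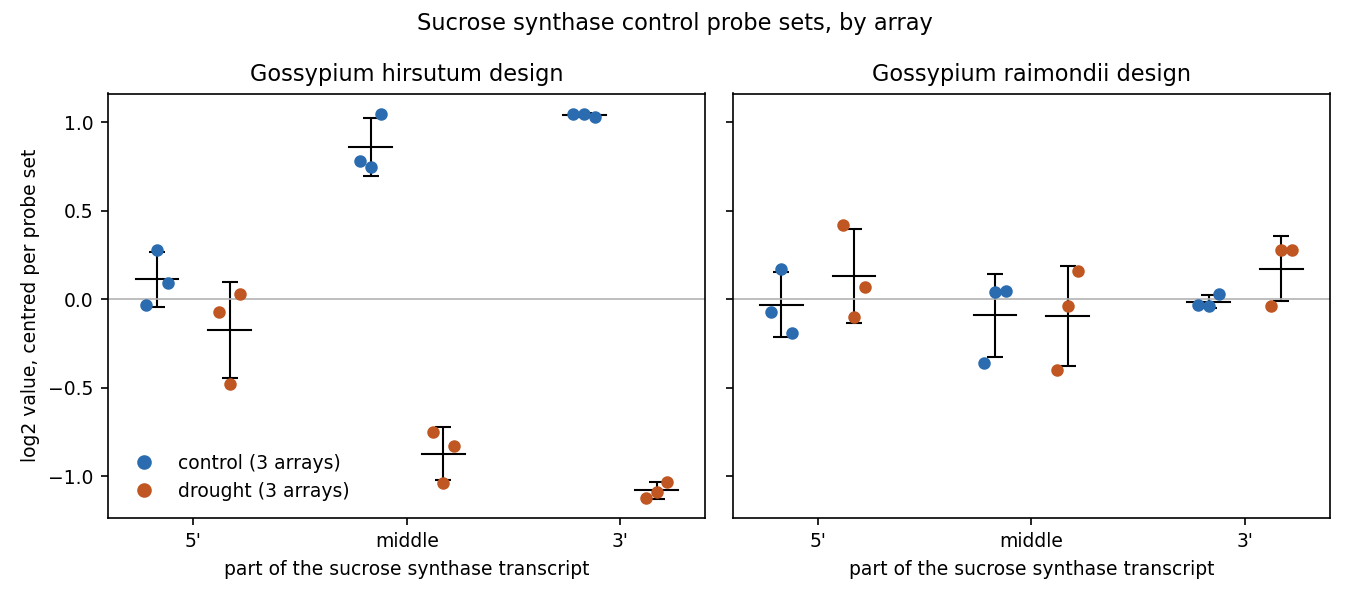
Centred log2 value (vertical axis) of the sucrose synthase control probe sets at the 5' end, middle and 3' end of the transcript (horizontal axis), upland cotton design on the left and Gossypium raimondii design on the right, with 1 point per array, control in blue and drought in orange, group mean and SD. In the left panel the groups are apart at the 3' end (1.04 against -1.08) and in the middle (0.86 against -0.87) and overlap at the 5' end; in the right panel they overlap throughout.

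Sus1 lay close to the 3' and middle control probe sets of the upland cotton design and apart from the 5' one. The root mean square difference between the Sus1 values and those of the 3' control probe set over the 6 arrays was 0.131, against 0.181 for the middle and 0.85 for the 5' probe set, where susC was 1.46 away. Among 243 other genes with an older name, those nearest to Sus1 were the alpha-tubulin gene TUA6 (LOC107886968, 0.0967), the dehydroascorbate reductase gene DHAR1 (0.1) and a glutathione S-transferase gene, GST (LOC107948407, 0.116). Nearest to susC were its cluster neighbour EXPA1 (0.127), CMDR1 (0.146) and the fibre gene H6L (0.156). Nearest to SusA1 were HB4 (0.133), the ACC synthase gene ACS1 of ethylene synthesis (0.148) and Di19-1 (0.155), a zinc finger gene of the Di19 family. These distances over 6 arrays take in the size of the drought difference and are a description.

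Few other genes of sugar metabolism have a name on this array. Of a list of sucrose, sugar phosphate and sugar transport genes, 2 besides the sucrose synthases were found. UGD2, a UDP-glucose dehydrogenase, which turns UDP-glucose into UDP-glucuronic acid, read 0.34, 0.29 and 0.36 in control and -0.29, -0.55 and -0.49 in drought and fell by 0.78 (SE 0.08, limma adjusted p = 6.86e-05). PEPC1, a phosphoenolpyruvate carboxylase, read -0.27, -0.26 and -0.28 in control and 0.43, 0.26 and 0.31 in drought and rose by 0.60 (SE 0.07, limma adjusted p = 0.000133), and by 0.35 under spike-in centring. No invertase, sucrose phosphate synthase or sucrose transporter was matched by name.

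Of 7 genes of cellulose and other wall glucans, 6 fell and 1 rose, with a median of -0.54. Among all 246 genes with an older name, 104 were lower, 78 were higher and 64 did not pass. The median was -0.11 over those genes and 0.12 over all tested probe sets. CTL1, a chitinase-like gene tied to cellulose formation, read 2.14, 2.11 and 2.12 in control and -2.25, -2.28 and -2.11 in drought and fell by 4.34 (SE 0.07, limma adjusted p = 1.34e-09). The cellulose synthase gene CelA1, also called CesA1, fell by 3.97 on an antisense-design probe set (SE 0.08, limma adjusted p = 2.14e-09). Its other probe set, also an antisense design, gave 0.26. The cellulose synthase-like gene CslD1 fell by 0.54 (SE 0.13, limma adjusted p = 0.00634) and the glucanase gene GLU by 0.42, also on an antisense design (SE 0.07, limma adjusted p = 0.00102). The xyloglucan-modifying gene XTH3 was the one that rose, by 2.45 (SE 0.09, limma adjusted p = 5.63e-08), and 2 other XTH genes fell on the probe set used. These were LOC107886823 (-0.78, with -1.25 on its other probe set) and LOC107911611 (-0.53, with -4.69 on its other probe set). The counts of 6 lower and 1 higher were the same under each scaling tried.

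Among markers of other tissues, those of fibre and flower were mostly lower in drought and those of seed did not pass. Of 5 fibre genes found, 4 fell and 1 rose, with a median of -3.07, to be read against the 104 lower and 78 higher among the 246 named genes. The array medians of the 5 ran from 1.41 to 1.62 in control and from -1.65 to -1.41 in drought. H6L (-4.75), Ghfe1 (-3.88), E6 (-3.07) and LTP3 (-0.65, with -0.20 on its other probe set) fell, and Fb2 rose by 0.47, which was 0.22 and no longer passed under spike-in centring (limma adjusted p = 0.179). Both flower genes found, MADS-1 (-4.21) and SEPALLATA3 (-1.56), fell. Of 4 seed genes none passed (limma adjusted p from 0.0651 to 0.563), though 1 was lower in 3 scalings: centred on the tested probe sets, centred on the spike-ins and quantile-normalized. The probe sets used for the seed genes vicB_At and LEGB are antisense designs. Without drought replicate 1, LEGB was higher (0.33, limma adjusted p = 0.0279). Without drought replicate 2 it was a different gene, Mat5-D (0.26, limma adjusted p = 0.0481). The leaf gene RCA1, Rubisco activase, rose by 0.60, and by 0.36 under spike-in centring. Whether the fibre and flower genes have any part in the decreases of susC and Sus1 was not tested.

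**Figure D4:**
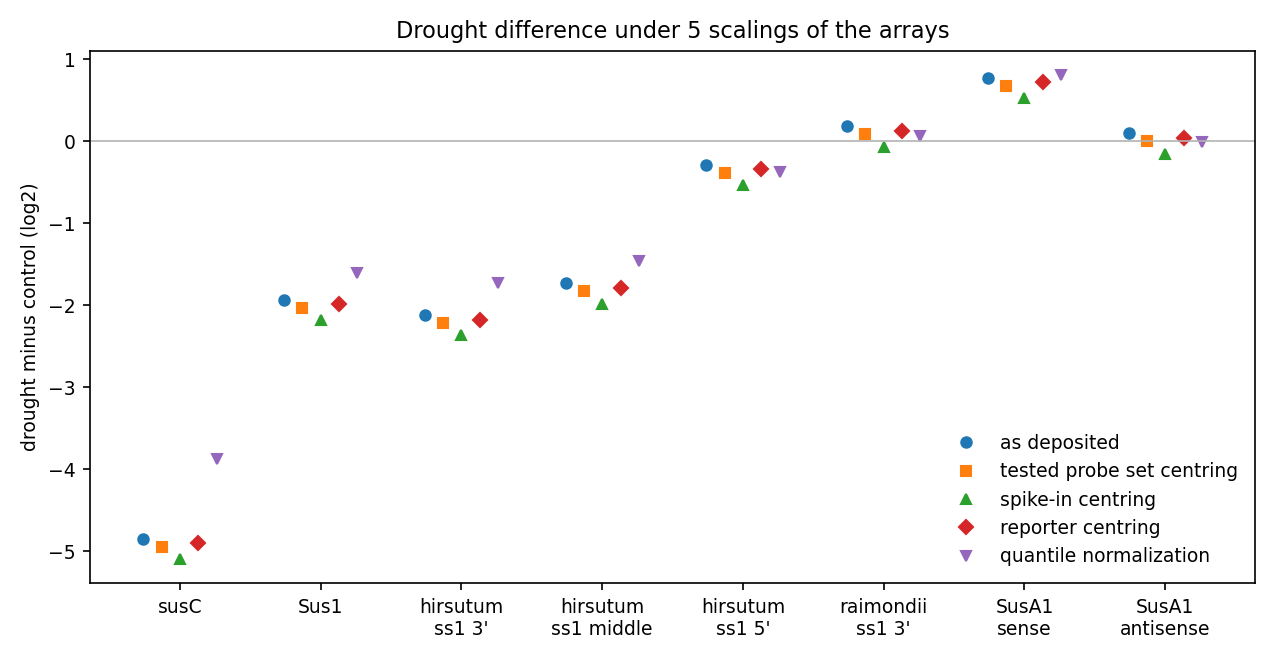
Drought minus control in log2 units (vertical axis) for sucrose synthase probe sets under 5 scalings of the arrays, shown by marker shape. susC, Sus1 and the 3' and middle upland cotton control probe sets stay below 0 and SusA1 sense above it under each, with susC between -5.09 and -3.88, while SusA1 antisense and the Gossypium raimondii 3' probe set lie near 0 and change side.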

How the data were processed

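Leaf RNA of 6 samples was read on Affymetrix cotton arrays. The deposited table holds log2 values from RMA, per the submitters' processing notes, which give no version. From the values, each probe set has a median of 0 over the 6 arrays (largest absolute median 5e-07); who centred them, and how, is not recorded. The scale and direction are not stated in the table and are taken from RMA, so higher is read as more signal. With no absolute level, no filter on low signal was possible. Array medians over the tested probe sets were -0.0472, -0.0459 and -0.0367 for control and 0.0817, 0.0294 and 0.0459 for drought, in replicate order.

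Left out were 86 control probe sets (27 hybridisation spike-ins, 42 poly-A spike-ins and 17 tags). The 17 cotton quality control probe sets, which hold the sucrose synthase ones, and 52 reporters of foreign sequences were kept. The platform annotation gives 1 gene for 697 probe sets, all found in RefSeq (Gossypium_hirsutum_v2.1), and several for 46. The 4 gene probe sets carry the suffix for probes shared by several transcripts, so near-identical gene copies may contribute. No build is named for the array, and positions and sequences are not given here.

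Drought was compared with control by lmFit and eBayes of limma 3.58.1 (R 4.3.3), without a block, with Benjamini-Hochberg adjustment over all tested probe sets and a threshold of 0.05; the script was tested on simulated data. Differences within an array were compared by two-sided exact permutation tests (SciPy 1.17.1), with intervals from the pooled SD. For a gene with several probe sets, sense came before antisense, then suffix and ID order. The 3 genes nearest to each member by root mean square difference were named. The members and lists were chosen with earlier results of these data known, so no list was tested as a set. Alternatives were 3 centrings, quantile normalization of the centred values of the tested probe sets, a replicate block and robust eBayes. Others were leaving out the quality control probe sets, and leaving out each array in turn.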

Additional observations from a re-analysis of the deposited data

How the results depend on the processing

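The calls and directions of susC, Sus1, SusA1 sense and the 3' and middle upland cotton control probe sets held under every setting that gave them a value. Without the quality control probe sets the control ones have none, and calls under spike-in centring carry the limit given above. Their differences ran from -5.09 to -3.88 for susC, from -2.18 to -1.60 for Sus1 and from 0.53 to 0.87 for SusA1 sense. Over all probe sets 3993 were higher under spike-in centring, against 8487 as deposited. The cause was not tested. Spike-in centring gave -0.53 for the upland cotton 5' probe set, which passed there. It passed narrowly at -0.38 with centring on the tested probe sets and at -0.37 after quantile normalization. Directions of probe sets that did not pass turned as follows. Spike-in centring gave -0.06, -0.25 and -0.09 for the Gossypium raimondii 3', middle and 5' probe sets and -0.15 for SusA1 antisense. The middle one gave -0.09 with centring on the tested probe sets, -0.05 with reporter centring and -0.09 after quantile normalization, where SusA1 antisense gave -0.00282.

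Without each array in turn, 11885 to 13104 probe sets changed, 7414 to 8282 higher and 4467 to 5092 lower. It gave -4.87 to -4.81 for susC, -1.98 to -1.87 for Sus1 and 0.63 to 0.87 for SusA1 sense. For SusA1 antisense the range was 0.07 to 0.12. For the upland cotton 3', middle and 5' control probe sets it was -2.15 to -2.10, -1.79 to -1.64 and -0.39 to -0.13, and for those of Gossypium raimondii 0.13 to 0.29, -0.13 to 0.15 and 0.01 to 0.27. The 3' minus 5' changes ran from -1.98 to -1.76 on the upland cotton design and from -0.14 to 0.28 on that of Gossypium raimondii. Changes between genes ran from -2.99 to -2.86 for susC minus Sus1, -5.70 to -5.49 for susC minus SusA1 and -2.82 to -2.50 for Sus1 minus SusA1. With the antisense SusA1 probe set the last 2 were -4.94 and -2.03.

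Same-numbered arrays of the groups deviated together only weakly (r = 0.033, 0.0449 and 0.0744), so the numbers are not taken to pair samples, although each array correlated best with its own number. The fit with the replicate block called 13253 probe sets, 8451 higher and 4802 lower, and changed no call among the sucrose synthase probe sets. The block gave an exact sign-flip p of 0.25, its smallest, for the differences between genes.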
